A study of Homo sapiens with 6 samples.

Results

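RBPJ and 9 further genes of the Notch pathway were followed in T24 cells after silencing of RBM3. The 10 genes are RBPJ, its coactivator MAML1, the receptors NOTCH1, NOTCH2 and NOTCH3, the ligands JAG1 and JAG2, and the target genes HES1, HEY1 and NRARP. They were found by symbol among the 63677 gene identifiers of the count table, and each matched 1 identifier. RBPJ was chosen by its rise after siRBM3 in these same libraries, so its values are given as a description, without a test. The others were taken for their place in the pathway. A filter on low counts kept 15099 genes, among them 9 of the 10, and NOTCH3 did not pass.

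T24 is an established human bladder cancer cell line of high grade. All libraries come from this one line, so they do not carry the variation between tumours. The control cells received a non-targeting siRNA and the siRBM3 cells a pool of siRNAs against RBM3, an RNA-binding protein. Both were transfected with Lipofectamine for 4.5 h at 25 nM in medium without serum, recovered overnight in full medium and were harvested on the following day. Polyadenylated RNA was sequenced from 3 control libraries (replicates 1, 3 and 5) and 3 siRBM3 libraries (replicates 3, 4 and 5). The labels do not say whether these came from separate cultures, so the p-values measure the spread between these libraries only, which may be technical.

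Notch receptors are membrane proteins that are activated by ligands of the Jagged and Delta-like families on a neighbouring cell. Binding leads to cleavage by an ADAM protease and then by gamma-secretase, and the freed intracellular domain moves to the nucleus. There it joins RBPJ, which binds DNA by itself, and a Mastermind protein such as MAML1, which brings in the acetyltransferase p300. Without the intracellular domain, RBPJ can hold corepressors at the same genes. HES1, HEY1 and NRARP are well-known targets, and the products of HES and HEY genes are themselves repressors. In the urothelium, Notch signalling takes part in differentiation, and mutations that lower it have been described in bladder cancer.

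RBPJ recognises DNA with the core letters TGGGAA. Promoter windows from RefSeq on GRCh38.p14, each of 250 bases before and 50 bases from the start of a gene, were searched on both strands, and 9 of the 10 genes had a window. Of these, RBPJ and HES1 held the core. The stretches around it are printed below because they are the places where RBPJ itself and its best known target carry the letters that RBPJ binds, together with HES4, a target gene whose values are given further on. Capitals mark TGGGAA, or TTCCCA where the core lies on the other strand, and each stretch is written 5′ to 3′ on the strand of the gene.
RBPJ, chr4:26319611-26319699, plus strand: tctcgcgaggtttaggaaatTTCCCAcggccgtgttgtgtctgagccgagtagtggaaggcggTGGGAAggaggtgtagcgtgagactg
HES1, chr3:194136044-194136103, plus strand: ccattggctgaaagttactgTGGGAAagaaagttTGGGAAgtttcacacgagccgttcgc
HES4, chr1:1000148-1000193, minus strand: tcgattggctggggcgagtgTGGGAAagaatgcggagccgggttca

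The RBPJ stretch holds the core on opposite strands, 115 and 72 bases before the start, in 1 of the 5 windows of the gene. In HES1 the copies lie on the same strand, 84 and 70 bases before the start, and HES4 holds 1 copy 76 bases before it. TGGGAA was found in 24.0% of all 35116 windows (95% exact binomial interval 23.6 to 24.5) and the longer GTGGGAA, which contains it, in 6.25% (5.997 to 6.506). A match describes the letters only and does not show that RBPJ was bound there.

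The libraries held between 23603992 and 45098612 counts. The deepest, siRBM3 replicate 3, also stood apart with 9.40% of its counts from mitochondrial genes, against 1.63% to 4.15% in the other 5. RBM3 itself, as the check of the labels, was at 225, 368 and 301 counts per 1000000 (CPM) in the control libraries and at 54.1, 90.1 and 58.4 CPM in the siRBM3 libraries, lower in each of them than in any control library. CPM here are on the TMM scale, in which library sizes are adjusted so that most genes agree between libraries. Of 8 urothelial markers, PPARG (133 to 149 CPM), GATA3 and UPK2 were above 1 CPM in every library, while UPK1A, UPK1B, UPK3A, TP63 and KRT20 stayed below 1 CPM, as did the epithelial markers CDH1 and KRT5. The leukocyte genes PTPRC and CD3E did not exceed 0.172 CPM. The summed epithelial markers, led by KRT7, reached 5065 to 5870 CPM in control and 4207 to 4305 CPM in siRBM3 libraries, without overlap, with 5 of 7 markers above 1 CPM. Of these 5, KRT7 and KRT8 were lower in every siRBM3 library than in any control library. EPCAM was higher in every siRBM3 library, and KRT18 and KRT19 overlapped between the groups. The summed urothelial markers, led by PPARG, did overlap (148 to 163 against 149 to 160 CPM). Of those above 1 CPM, GATA3 was higher in every siRBM3 library (9.31 to 12.5 against 13.6 to 14.3 CPM), and PPARG and UPK2 overlapped. The summed mesenchymal markers led by VIM also overlapped (2406 to 3065 against 2810 to 3083 CPM). Over all tested genes, 9.98% were higher and 9.93% lower without overlap. The sum of 5 markers of other cell types, carried mostly by CDH5, was 37.1 to 44.2 CPM in control and 44.9 to 50.7 CPM in siRBM3 libraries. The part of these differences in the values that follow was not tested.

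RBPJ (ENSG00000168214, GRCh37, chr4:26165077-26436753, plus strand), the DNA-binding protein at the centre of the pathway, was at 41.8, 29.5 and 34.3 CPM in control replicates 1, 3 and 5. In siRBM3 replicates 3, 4 and 5 it was at 65.7, 68.2 and 67.7 CPM. The lowest siRBM3 library was therefore well above the highest control library, and the siRBM3 libraries lay closer together than the control libraries. The means were 35.2 ± 6.19 and 67.2 ± 1.36 CPM (SD, n = 3 each), a difference of 0.93 on the log2 scale (SE 0.13), or 1.91-fold. In the order of log2 differences from the highest, RBPJ ranked 131 among the 15099 genes, and by mean CPM it stood at the 71st percentile. Since this contrast chose the gene, these values are a description. In bulk RNA, a change in the share of cells that express a gene and a change in RNA per cell cannot be told apart, here and for every gene below.

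The difference for RBPJ was positive whichever library was left out, with a lowest log2 value of 0.82 (control replicate 3 omitted) and a highest of 1.07 (control replicate 1 omitted). The exons of RBPJ share no base with another annotated gene. Its pseudogenes RBPJP2, RBPJP5, RBPJP6 and RBPJP7, all on chromosome 9, held 0 counts in all 6 libraries, and RBPJL, the paralogue of RBPJ, held 1 count in total. Reads shared between RBPJ and a pseudogene may not have been counted to the pseudogene, so these counts do not show that the pseudogenes are silent.

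**Figure D1:**
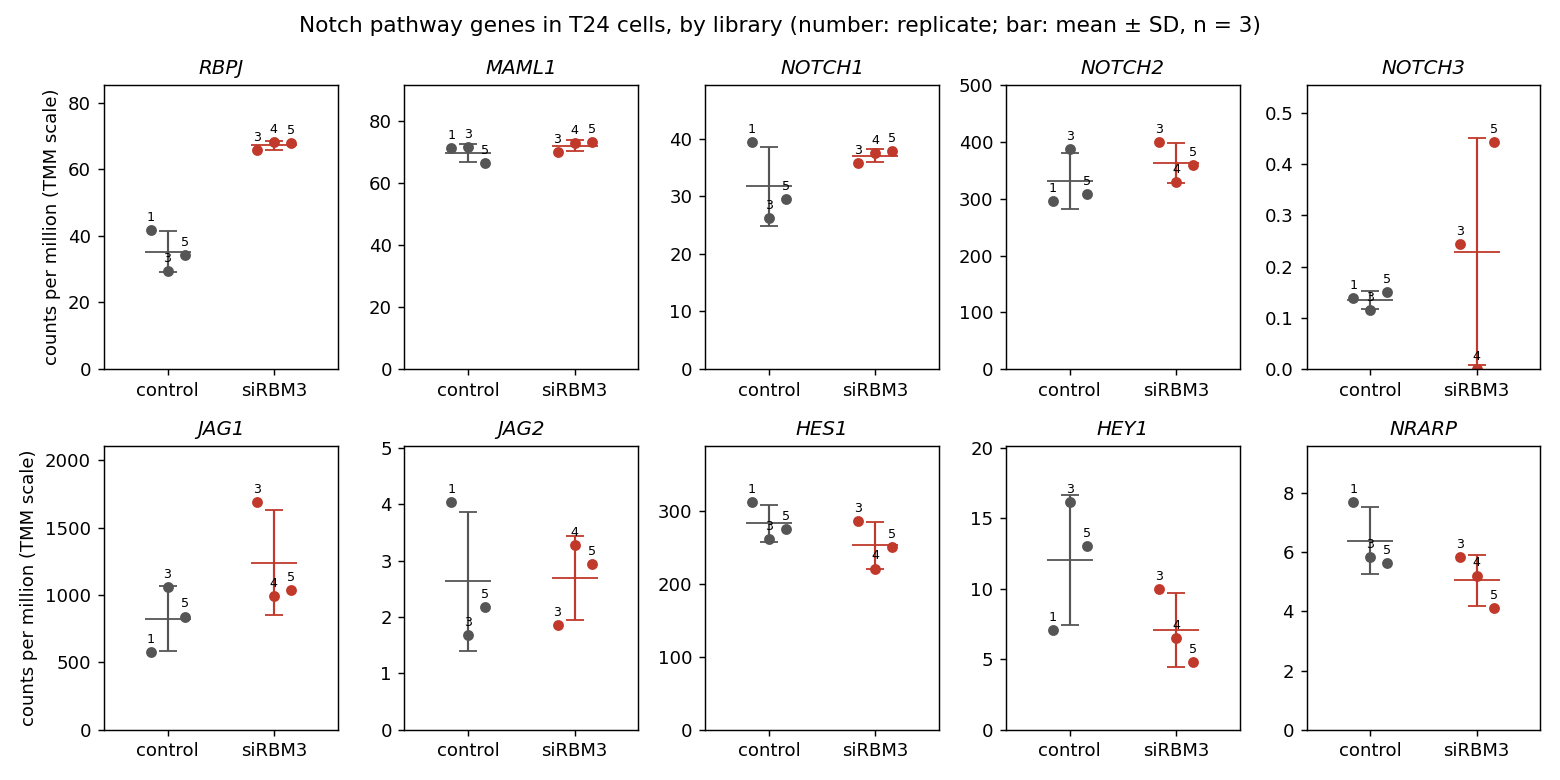
CPM on the TMM scale in each library for the 10 genes, one panel per gene with its own axis from 0, where points are libraries numbered by replicate and bars are mean ± SD of 3 libraries. The RBPJ points of the siRBM3 group lie between 65.7 and 68.2 CPM, above the control range of 29.5 to 41.8 CPM, while the groups overlap in each of the other 9 genes.

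Across all genes, 0 of 15099 passed both a fold of 1.5 and a false discovery rate of 0.01 in edgeR (0%), so no Notch gene did. At an unadjusted p under 0.05, 990 genes were higher in siRBM3 (6.56%) and 993 lower (6.58%), and none of the 8 tested genes other than RBPJ was among them. The lowest siRBM3 value exceeded the highest control value in 9.98% of all tested genes, and the reverse held in 9.93%, against 0 of these 8 in either direction. DESeq2, run as an alternative, called 0.643% of its 13068 genes higher and 0.574% lower at the same thresholds, and 0 of the 8. Of the 8, 5 had a positive and 3 a negative log2 difference, with a median of 0.03 against -0.01 over all tested genes. An exact permutation test between 3 and 3 libraries cannot go below a two-sided p of 0.1.

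MAML1 (chr5:179159823-179204284, plus strand), the coactivator that bridges the intracellular domain and RBPJ, was at 71.3, 71.4 and 66.4 CPM in control replicates 1, 3 and 5. In siRBM3 replicates 3, 4 and 5 it was at 69.9, 72.7 and 73.2 CPM. The 6 libraries were nearly level. The difference of 0.05 on the log2 scale had a 95% interval of -0.16 to 0.25 (edgeR, FDR 0.863; exact permutation p = 0.4). The related MAML2 lay between 38.8 and 46.0 CPM in control and between 48.7 and 53.3 CPM in siRBM3 libraries, without overlap, a log2 difference of 0.28 (SE 0.11, unadjusted p = 0.0287, edgeR FDR 0.318). MAML3 overlapped between the groups (log2 difference 0.03). Of the acetyltransferases that Mastermind proteins bring in, EP300 was at 159, 196 and 156 CPM in control and at 251, 199 and 199 CPM in siRBM3 libraries. The EP300 groups did not overlap, though control replicate 3 lay close to the lower siRBM3 libraries (0.34, SE 0.13, unadjusted p = 0.0308, edgeR FDR 0.325), and the log2 difference was 0.22 without siRBM3 replicate 3. CREBBP overlapped between the groups (0.17, SE 0.13). Of the 9 tested genes of the nuclear complex, with RBPJ, chosen by its rise, included, 3 were higher without overlap, against 9.98% of all genes. SNW1 was the 1 that was lower without overlap (-0.20, SE 0.10), against 9.93% of all genes.

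Of the receptors, NOTCH2 (chr1:120454176-120643366, minus strand) was at 296, 389 and 309 CPM in control replicates 1, 3 and 5 and at 401, 330 and 359 CPM in siRBM3 replicates 3, 4 and 5. Control replicate 3 was higher than all but 1 siRBM3 library. The log2 difference was 0.13 (SE 0.13, 95% interval -0.16 to 0.43, edgeR FDR 0.709). Without control replicate 1, control replicate 5 or siRBM3 replicate 3 it was 0.06, 0.08 and 0.06, and without control replicate 3 it was 0.26. NOTCH2NLA, a partial copy of NOTCH2, held 0 counts in all 6 libraries. This does not show that the copy is silent, since reads shared with NOTCH2 may not have been counted to it. NOTCH1 (chr9:139388885-139440500, minus strand) was at 39.5, 26.2 and 29.4 CPM in control and 35.8, 37.5 and 37.9 CPM in siRBM3 libraries. Control replicate 1 was the highest of all 6, and the other control libraries were the lowest. The log2 difference was 0.22 (SE 0.16, 95% interval -0.13 to 0.58, edgeR FDR 0.589). Omitting control replicate 3 left 0.10 and omitting control replicate 1 left 0.41, as did the replicate block.

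NOTCH3 (chr19:15269849-15311806, minus strand) gave 4, 3 and 4 counts in control libraries and 10, 0 and 11 counts in siRBM3 libraries, 32 in all. A library at 0 counts allows up to 3 by counting error, so at this depth no difference could be read. NOTCH4 gave 61 counts in total and was not tested either.

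Compared per length, as CPM divided by the length of the canonical transcript in kilobases (RPKM), NOTCH2 made up most of the receptor mRNA. Its share of the summed RPKM of the 4 receptors was 89.3% ± 3.10 in control and 88.9% ± 1.11 in siRBM3 libraries (SD, n = 3 each), that of NOTCH1 10.4% ± 3.14 and 10.9% ± 1.19. With the union of all annotated exons as the length, the share of NOTCH2 ranged from 84.8% to 91.6% over the libraries.

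JAG1 (chr20:10618332-10654647, minus strand), the most abundant ligand, was at 574, 1060 and 840 CPM in control replicates 1, 3 and 5. In siRBM3 replicates 3, 4 and 5 it was at 1687, 990 and 1040 CPM. A single library, siRBM3 replicate 3, was far above the others, and control replicate 3 was above both remaining siRBM3 libraries. The means were 825 ± 244 and 1239 ± 389 CPM (SD, n = 3 each), a log2 difference of 0.59 (SE 0.27, 95% interval -0.04 to 1.21, edgeR FDR 0.408, exact permutation p = 0.3). It was 0.30 without siRBM3 replicate 3, 0.38 without control replicate 1 and 0.81 without control replicate 3. In each group the library with the most JAG1 was also the one with the largest mitochondrial share (2.86% in control replicate 3 and 9.40% in siRBM3 replicate 3). NOTCH2 and EP300 were also highest in these libraries. In siRBM3 replicates 4 and 5 the order for JAG1 was reversed, with mitochondrial shares of 4.15% and 2.3%. The part of the mitochondrial share in the JAG1 difference was not tested. Of the JAG1 exon bases, 3.29% are shared with another annotated gene.

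The second Jagged ligand, JAG2 (chr14:105607319-105635161, minus strand), was low, at 4.03, 1.68 and 2.18 CPM in control and 1.85, 3.28 and 2.95 CPM in siRBM3 libraries. The groups overlapped throughout. The log2 difference was 0.01 with a wide 95% interval of -0.82 to 0.85 (edgeR FDR 0.992), and its sign depended on which library was left out. Of the Delta-like ligands, DLL1 held 44 counts in total and was not tested, and DLL4 was below 1 CPM in every library (log2 difference -0.15, SE 0.32). DLL3, which acts mostly inside the cell, was at 1.38, 1.42 and 1.51 CPM in control and 0.975, 1.03 and 0.888 CPM in siRBM3 libraries, with no overlap (-0.57, SE 0.24, unadjusted p = 0.0412, edgeR FDR 0.356). It held only 22 to 40 counts per library, and its unadjusted p stayed under 0.05 in 4 of 13 alternatives. The non-canonical ligand DLK2 lay between 1.24 and 3.10 CPM, lower in the siRBM3 libraries (-0.71, or -0.44 without control replicate 1, SE 0.29, unadjusted p = 0.0398, edgeR FDR 0.353), and DLK1 gave 2 counts in total.

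**Figure D2:**
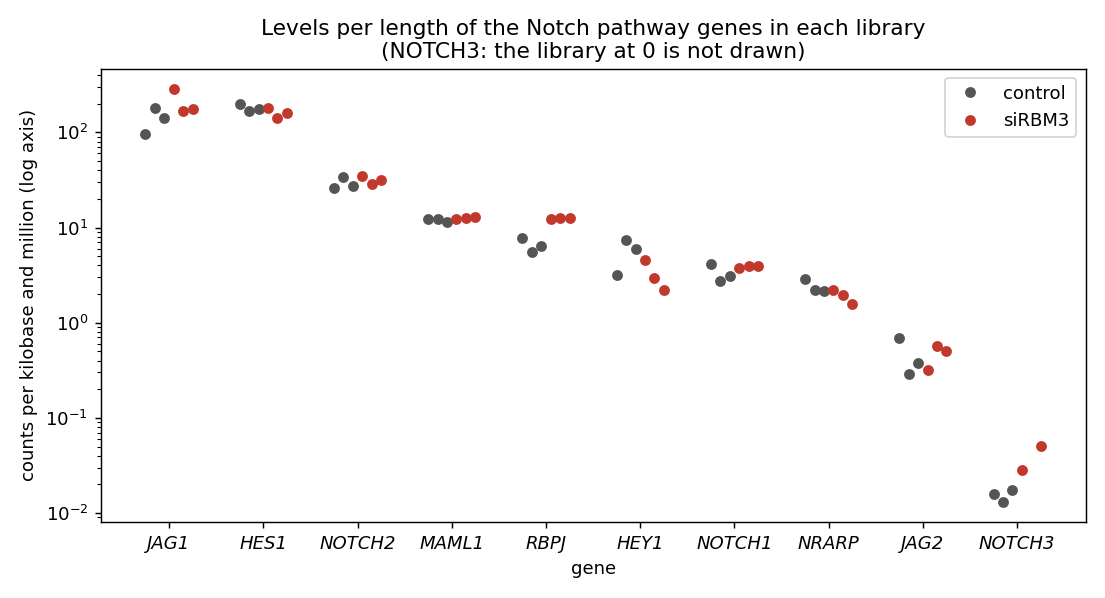
RPKM (CPM divided by the kilobases of the canonical transcript), on a log axis, in each library (points, control and siRBM3) for the 10 genes in order of their mean over 6 libraries. JAG1 (96.6 to 284 RPKM) and HES1 (141 to 198 RPKM) overlap at the top, NOTCH2 (25.9 to 35.1 RPKM) overlaps neither neighbour, and NOTCH3 stays at or below 0.0511 RPKM.

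Ordered by mean RPKM over the 6 libraries, JAG1 stood at 174 and HES1 at 170, and their ranges overlapped. NOTCH2 followed at 30.4, below every HES1 and above every MAML1 value. MAML1 (12.3) and RBPJ (9.49) came next and overlapped: RBPJ was at 6.52 ± 1.15 RPKM in control libraries, below all MAML1 values, and at 12.5 ± 0.252 RPKM in siRBM3 libraries, within the MAML1 range of 11.5 to 12.7. HEY1 (4.36) and NOTCH1 (3.59) overlapped, as did NOTCH1 and NRARP (2.17). JAG2 (0.461) and NOTCH3 (0.0209) lay below, each apart from its neighbour. With the exon union as length, HES1 came before JAG1, and NOTCH1 and NRARP before HEY1, with the other positions as given. The mean over the 6 libraries was then 3.34 RPKM for RBPJ and 11.9 RPKM for MAML1. The overlap of RBPJ with MAML1 in siRBM3 libraries therefore held for the canonical length only.

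None of the target genes HES1, HEY1 and NRARP passed the test, and the groups overlapped in each. HES1 (chr3:193853937-193856521, plus strand), a repressor of the basic helix-loop-helix type whose promoter stretch is printed above, was at 312, 263 and 275 CPM in control replicates 1, 3 and 5 and at 287, 221 and 251 CPM in siRBM3 replicates 3, 4 and 5. Its groups overlapped through siRBM3 replicate 3, and the log2 difference was -0.16 (SE 0.12, 95% interval -0.44 to 0.11, edgeR FDR 0.616, exact permutation p = 0.3). It was -0.07 without siRBM3 replicate 4, -0.09 without control replicate 1, -0.26 without siRBM3 replicate 3 and -0.0023 with the replicate block. HEY1 (chr8:80674606-80680092, minus strand), a related repressor, was at 7.03, 16.1 and 13.0 CPM in control and at 9.97, 6.48 and 4.80 CPM in siRBM3 libraries. Control replicate 1 was within the siRBM3 range, and the other control libraries were above it. The log2 difference of -0.75 (SE 0.35, 95% interval -1.56 to 0.05, edgeR FDR 0.412, exact permutation p = 0.2) became -1.09 without siRBM3 replicate 3 and -0.49 without control replicate 3. NRARP (chr9:140194083-140196723, minus strand), a feedback inhibitor of the nuclear complex, was at 7.69, 5.85 and 5.65 CPM in control and at 5.82, 5.21 and 4.12 CPM in siRBM3 libraries. Its groups met, with siRBM3 replicate 3 between control replicates 3 and 5, and the log2 difference was -0.34 (SE 0.21, 95% interval -0.81 to 0.14, edgeR FDR 0.533, exact permutation p = 0.2). It was -0.18 without control replicate 1, -0.21 without siRBM3 replicate 5 and -0.22 with the replicate block.

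Of 10 HES, HEY and NRARP genes listed, 7 passed the filter and all 7 had a negative log2 difference, as did 7774 of the 15099 tested genes, with a median of -0.34 against -0.01 over all tested genes. With unadjusted p below 0.05, 2 of the 7 were lower and 0 higher (6.58% and 6.56% of all genes). The 2 became 1 without control replicate 5 or siRBM3 replicate 4. They became 3 without control replicate 1 or siRBM3 replicate 3, and also in DESeq2, with library size only, with no filter and with the replicate block. HES4 was at 25.8, 21.1 and 35.7 CPM in control and at 19.9, 17.5 and 20.2 CPM in siRBM3 libraries, a log2 difference of -0.52 (SE 0.19, unadjusted p = 0.0252, edgeR FDR 0.306), or -0.29 without control replicate 5. HES6, which differs from other HES proteins in counteracting HES1, was at 6.03, 6.96 and 9.34 CPM in control and at 5.19, 3.56 and 4.52 CPM in siRBM3 libraries (-0.74, SE 0.23, unadjusted p = 0.0105, edgeR FDR 0.236). Neither gene overlapped between the groups. HES7 (-0.32) and HEY2 (-0.21) were low and overlapped, and each turned positive without 1 library, HES7 to 0.01 without siRBM3 replicate 3 and HEY2 to 0.10 without siRBM3 replicate 5, so that 6 of 7 were negative there. HES5 gave 6 counts and HEYL 0 counts in total.

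**Figure D3:**
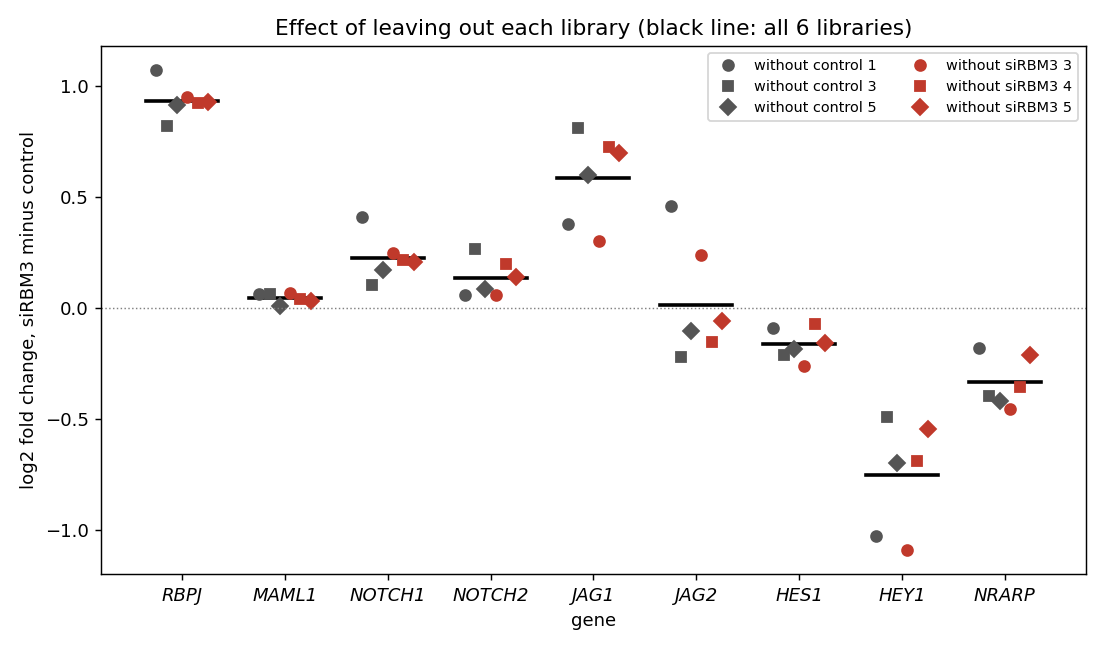
Log2 difference, siRBM3 minus control, of the 9 genes that passed the filter, with all 6 libraries (black line) and after omission of single libraries (points, shaped and coloured by the library left out). RBPJ, whose sign could not change because its groups do not overlap, stays between 0.82 and 1.07. JAG2 crosses 0 (-0.22 to 0.46), and HES1, HEY1 and NRARP stay below 0.

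A wider list of 78 genes of the pathway, the 10 included, was read in the same way. Of its 65 tested genes other than RBPJ, 38 had a positive and 27 a negative log2 difference, and their median was 0.05. With unadjusted p below 0.05, 10 were higher (15.4%, against 6.56% of all genes) and 5 lower (7.69%, against 6.58%). These 15 became 8 without control replicate 5 and 9 without siRBM3 replicate 4. Groups without overlap were found in 12 higher (18.5%, against 9.98%) and 8 lower (12.3%, against 9.93%). None of the 65 was called at a fold of 1.5 and an FDR under 0.01 by edgeR with the filter and no replicate block, or by DESeq2. These shares describe the list, and since the list was chosen with earlier results known they are no evidence that it differs from other genes.

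The enzymes that attach sugars to the extracellular part of the receptors held the smallest p in each direction among the 65 genes. Of 6 tested, 2 were higher and 1 lower with unadjusted p below 0.05, against 6.56% and 6.58% of all genes. POFUT1, which adds O-fucose to the EGF repeats and so makes the site for the Fringe enzymes, was at 158, 166 and 146 CPM in control replicates 1, 3 and 5. In siRBM3 replicates 3, 4 and 5 it was at 104, 115 and 108 CPM. The groups were far apart for their spread, and the log2 difference was -0.52 (SE 0.09, unadjusted p = 0.000407, edgeR FDR 0.0928). In DESeq2 the adjusted p was 0.00166, with a fold below 1.5. LFNG, the Fringe enzyme that extends the fucose and shifts the response from Jagged to Delta-like ligands, was at 44.3, 24.7 and 26.2 CPM in control and at 47.8, 54.6 and 55.1 CPM in siRBM3 libraries. Control replicate 1 came close to the lowest siRBM3 library, and it was also the highest control library for RBPJ and NOTCH1. The log2 difference was 0.73 (SE 0.22, unadjusted p = 0.00996, edgeR FDR 0.234), with 1.04 when control replicate 1 was omitted. LFNG passed the call with the replicate number as a block (1.01) and with no filter on low counts (0.74). EOGT, which adds O-linked N-acetylglucosamine to the same repeats, was at 39.1, 38.8 and 32.4 CPM in control and at 60.5, 47.0 and 55.6 CPM in siRBM3 libraries, without overlap (0.56, SE 0.13, unadjusted p = 0.00232, edgeR FDR 0.157, DESeq2 adjusted p = 0.0189), and it passed the call with the replicate block (0.71).

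In receptor and ligand turnover, 2 of 13 tested genes were higher with unadjusted p below 0.05 and 0 lower, against 6.56% and 6.58% of all genes. MIB1, the ubiquitin ligase that makes ligands competent by endocytosis, was at 68.4, 65.6 and 61.7 CPM in control and at 84.0, 82.1 and 85.6 CPM in siRBM3 libraries, with little spread in either group (0.36, SE 0.09, unadjusted p = 0.0033, edgeR FDR 0.17). AAK1, a kinase of clathrin-mediated endocytosis, had a log2 difference of 0.34 (SE 0.15, edgeR FDR 0.374). The ubiquitin ligases ITCH (-0.13) and DTX3L (-0.17), overlapped between the groups.

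Among 8 tested proteases, 2 were higher by the same measure and 0 lower, beside 6.56% and 6.58% over all genes. FURIN, which cleaves the receptor precursor on its way to the surface, was at 178, 198 and 193 CPM in control and at 266, 242 and 213 CPM in siRBM3 libraries (0.34, SE 0.11, unadjusted p = 0.0114, edgeR FDR 0.242). APH1B, a subunit of gamma-secretase, lay between 12.6 and 13.9 CPM in control and between 15.5 and 18.1 CPM in siRBM3 libraries (0.34, SE 0.13, edgeR FDR 0.317). NCSTN, a further subunit, differed by 0.13 (SE 0.09). PSENEN was not tested, with 24 counts in total, and 52.2% of its exon bases are shared with other annotated genes, so that its count is uncertain.

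Of 16 repressor partners of RBPJ, 2 were higher and 0 lower with unadjusted p below 0.05, where all genes gave 6.56% and 6.58%. The histone deacetylase HDAC2 was at 138, 124 and 118 CPM in control and at 156, 153 and 148 CPM in siRBM3 libraries (0.27, SE 0.09, edgeR FDR 0.28). The corepressor TLE1 was at 51.8, 45.6 and 41.8 CPM in control and at 59.7, 53.0 and 54.2 CPM in siRBM3 libraries (0.26, SE 0.11, edgeR FDR 0.379). HDAC1, an abundant histone deacetylase related to HDAC2, overlapped between the groups (-0.04, SE 0.11).

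**Figure D4:**
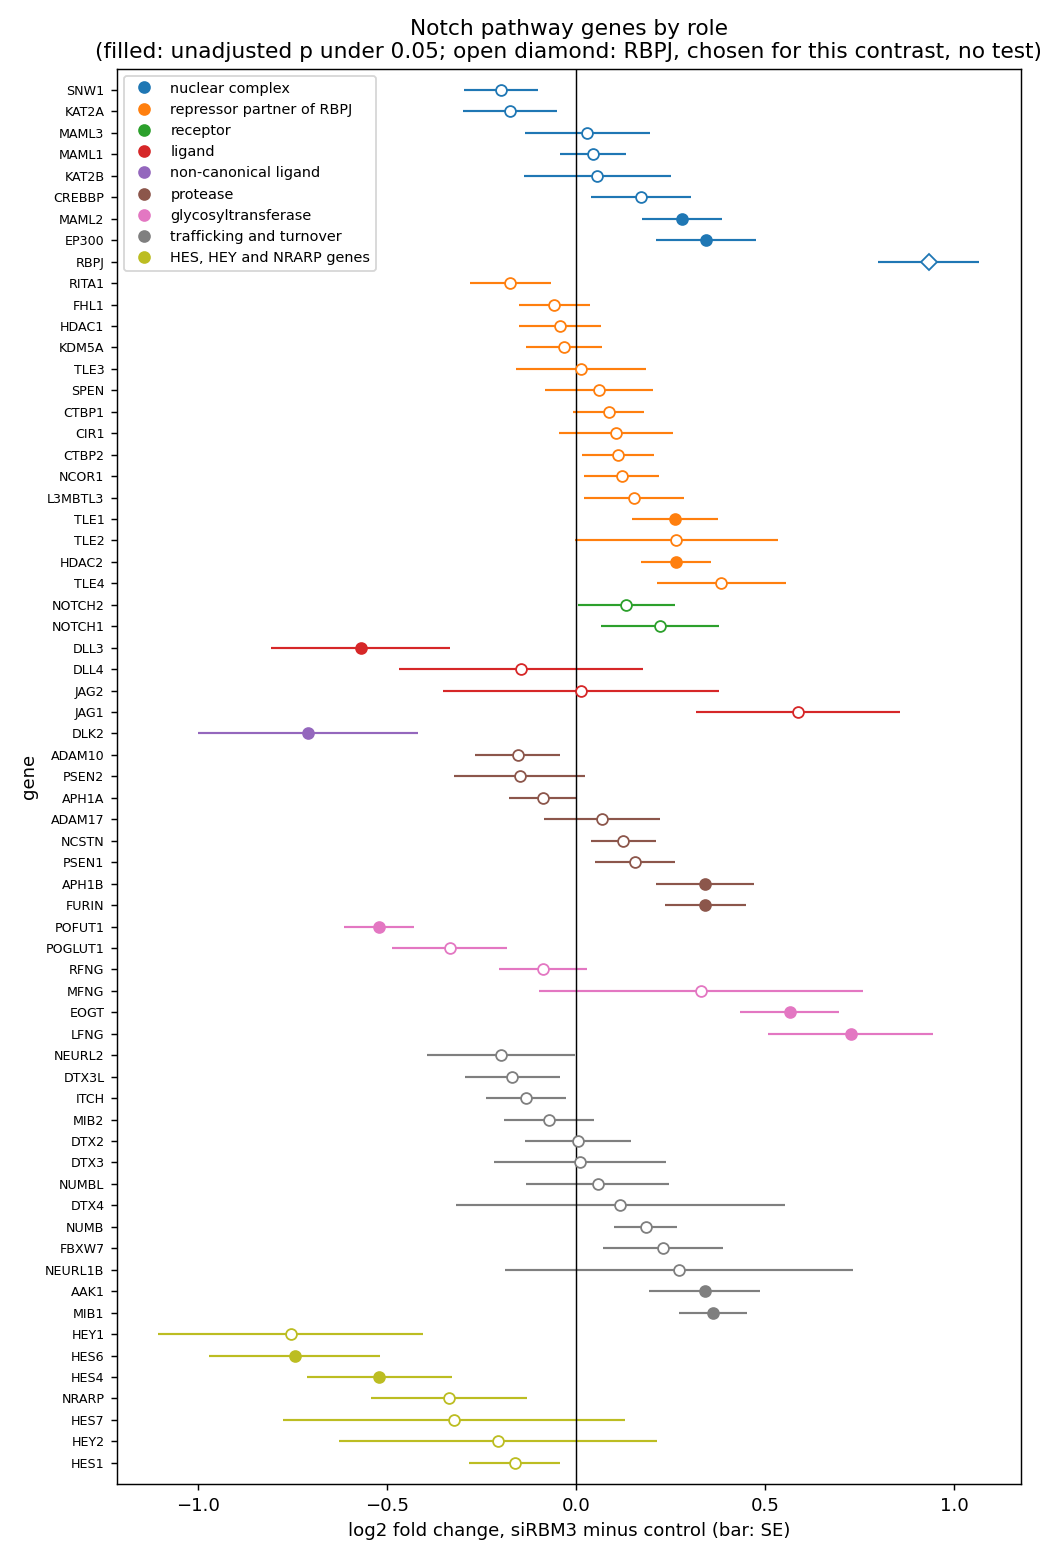
Log2 difference, siRBM3 minus control, with its SE (bars) for 65 of the 66 tested genes of the list, coloured by role, with filled points at an unadjusted p under 0.05 and RBPJ as an open diamond with no test. All 7 HES, HEY and NRARP genes lie left of 0, and among the glycosyltransferases POFUT1 (-0.52) and LFNG (0.73) lie on opposite sides.

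Genes with the RBPJ letters in a promoter window had nearly the same median difference as those without. Of 10780 tested genes with a promoter window, 844 held GTGGGAA, with a median log2 difference of -0.01 against -0.01 in those without. With TGGGAA, 2988 genes had a median of -0.01 against -0.02. In the list, 10 of the 66 genes with a window held GTGGGAA, among them RBPJ, HES1, HES4, HEY2, HES5, HEYL and the corepressor SPEN. The 66 include genes that did not pass the filter, and some genes have several windows. This count is therefore not comparable with the counts of tested genes or the share of windows given above.

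Over the 6 libraries, the log2 CPM of NOTCH1 had a Pearson correlation of 0.78 with that of RBPJ, MAML1 0.50, JAG1 0.43, JAG2 0.35, NOTCH2 0.20, HES1 -0.40, NRARP -0.49 and HEY1 -0.78. These points share the difference between the groups and the library scaling, and the values are a description. The 5 genes most like RBPJ among the 15098 others were RCAN3 (r = 0.998), BCL9 (0.997), SRPRA (0.996), FANCF (0.994) and the gene ENSG00000226266 (0.992), and 140 genes had a correlation over 0.95. RCAN3 was at 46.8, 39.7 and 43.8 CPM in control and at 58.7, 60.7 and 60.6 CPM in siRBM3 libraries. It shared with RBPJ the lowest control library, replicate 3, and the narrow siRBM3 range. BCL9, a coactivator of Wnt signalling, was at 29.6, 23.0 and 24.9 CPM in control and at 39.1, 38.9 and 40.0 CPM in siRBM3 libraries.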

How the data were processed

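RNA from T24 cells was sequenced by the authors in 3 control and 3 siRBM3 libraries, grouped by their labels. The deposited values are raw counts per Ensembl gene. According to the methods and the submitters' processing notes, reads were trimmed by the authors, aligned to hg19/GRCh37 with STAR 2.5.2a, marked for duplicates with Picard and counted with featureCounts of Subread. The annotation release, the strand setting and the treatment of duplicates were not given in the sources used here, and counts of overlapping genes are therefore uncertain.

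Of 63677 identifiers, 55665 were matched to a symbol and a place on GRCh37 (GENCODE v44lift37), which also gave lengths. Library totals ran from 23603992 to 45098612 counts, and precision is limited by 3 libraries per group. No pair of libraries of the same group agreed within sampling noise (chi-square per degree of freedom 27.7 to 141).

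Genes were filtered with filterByExpr (minimum count 10, minimum total 15), scaled by TMM and tested two-sided with the quasi-likelihood method of edgeR 4.0.16 (robust, older default form), with Benjamini-Hochberg adjustment over 15099 genes. A call needed a fold of 1.5 and an FDR under 0.01. SE is the log2 difference divided by the square root of F. Exact permutation tests used log2(CPM + 0.5). Correlations used log2 CPM with a prior count of 2. DESeq2 1.42.0, limma-voom (limma 3.58.1), RLE factors, library size only, no filter, a mean of at least 20 counts, the replicate block and leaving out each library were alternatives. R 4.3.3 and Python 3.11.15 were used, and the steps were tested on simulated data.

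The members and lists were chosen with earlier results of these data known. Genes named were the 10 members, listed genes at an unadjusted p under 0.05 or called by DESeq2, undetected receptors and ligands, the highest 2 by CPM in each role, the 5 genes most correlated with RBPJ, pseudogenes and copies, and RBM3. HES7, HEY2, MAML3, DLL1, DLL4, NOTCH4, HES5, HEYL, RBPJL, PSENEN, SPEN and SNW1 were named after their values were seen. A listed gene that the rule names is counted in the totals but not reported here.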

Additional observations from a re-analysis of the deposited data

How the results depend on the processing

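The log2 differences of RBPJ and 25 further genes, the counts of genes and the median of the list were recomputed under 13 alternatives, 6 of which left out 1 library. Levels per length, receptor shares, correlations and marker sums were not. Of 325 values for 25 single genes other than RBPJ, 314 kept their direction and their side of the call threshold, 8 changed sign and 3 passed the threshold. Since the main fit called 0 genes, keeping that side says little. Of the 15 listed genes at an unadjusted p under 0.05 in edgeR, DLL3 stayed there in 4, TLE1 in 5 and AAK1 in 6 of 13 alternatives. HES6, FURIN, POFUT1, EOGT, LFNG and MIB1 stayed there in all 13, and the others in 8 to 11. The number of genes at a fold of 1.5 and an FDR of 0.01 was 0 in edgeR and in limma-voom, 159 in DESeq2, 279 with no filter on low counts and 336 with the replicate block, and 0 to 1 when a library was left out (1 without control replicate 1). At an unadjusted p under 0.05, edgeR had 1983 genes, limma-voom 1981 and DESeq2 2022. The replicate block, for which only replicates 3 and 5 are shared, gave 3745. Deviations of replicate 3 correlated at 0.53 between the groups and those of replicate 5 at 0.09. The crossed pairs gave -0.30 (control 3 with siRBM3 5) and -0.13 (control 5 with siRBM3 3), and control 1 with siRBM3 4 gave 0.20. With 3 libraries per group, each centred on the group mean, these values cannot decide whether the numbers pair the libraries. The labels do not say so, and the main fit used no block.

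Of the listed genes other than RBPJ, 15 had an unadjusted p under 0.05, 24 with the replicate block and 8 (without control replicate 5) to 15 when a library was left out, with 9 without siRBM3 replicate 4. EOGT (0.71) and LFNG (1.01) passed the call with the replicate block, and LFNG (0.74) with no filter. JAG1 and HEY1 were each at an unadjusted p under 0.05 in 6 of 13 alternatives and NOTCH1 in 2. Scaling by library size only moved the median of all tested genes from -0.01 to -0.06 and that of the list from 0.05 to -0.0019, changed the split at an unadjusted p under 0.05 from 990 higher and 993 lower to 611 and 1130, and turned JAG2 to -0.0365 and MAML1 to -0.0019. Leaving out a library took JAG2 from -0.22 to 0.46, HES7 from -0.65 to 0.0114 and HEY2 from -0.84 to 0.10. For the changes of sign, the cause was not tested. NOTCH3 and the other genes under the filter were too shallow to compare.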
